A study of Mus musculus with 9 samples.

Results

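The nuclear genes of the mitochondrial respiratory chain and ATP synthase were compared between T follicular helper (Tfh) cells of mice with 1 mutant Tgfbr1 allele and those of wild-type littermates. Members were all genes whose symbol began with Nduf, Uqcr, Cox4, Cox5, Cox6, Cox7, Cox8 or Atp5, together with Sdha, Sdhb, Sdhc, Sdhd, Cyc1 and Cycs, with pseudogenes marked by an ending in -ps left out. This rule gave 94 of the 54146 genes in the deposited table, of which 87 had enough counts to be tested. The members were 36 subunits of complex I, 7 complex I assembly factors named Ndufaf, 4 subunits of complex II, 9 of complex III, cytochrome c (Cycs), 17 genes of complex IV and 15 of complex V, the ATP synthase. Another 5 carried a matching symbol but were kept apart, namely Ndufa4 and Ndufa4l2, which belong with complex IV, the supercomplex factor Cox7a2l, and Atp5s and Atp5sl, which are not ATP synthase subunits. Subunits filed under other symbols were not counted.

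Tfh cells are the CD4 T cells on which B cells rely for maturation in the germinal centre. Tgfbr1 is the type I chain of the TGF-beta receptor. CD4+CXCR5+PD1+ cells had been sorted from Peyer's patches, the lymphoid follicles of the gut wall, and polyadenylated RNA was sequenced from 5 libraries of WT/mut mice (replicates 6 to 10) and 4 libraries of WT mice (replicates 1, 3, 4 and 5). Both groups carried at least 1 wild-type Tgfbr1 allele. The labels give no strain, age or sex, do not say what the mutation is or which cells carry it, and leave unsaid whether 2 libraries could share a mouse, so that p-values speak of the spread between these libraries, which may be technical.

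The respiratory chain sits in the inner mitochondrial membrane. Complex I takes electrons from NADH and complex II takes them from succinate, ubiquinone carries them to complex III, and cytochrome c carries them to complex IV, where oxygen is reduced. Complexes I, III and IV pump protons, and complex V uses the returning protons to make ATP. Complexes I, III, IV and V combine subunits encoded in the nucleus with subunits encoded in mitochondrial DNA, while complex II is encoded wholly in the nucleus. In T cells, oxidative metabolism is known to change with activation and differentiation.

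Libraries held between 29488783 and 43872686 counts, and levels are given as CPM (counts per 1000000 counts, with library sizes scaled by the TMM method of edgeR). Values per library follow the order of the replicate numbers, 6, 7, 8, 9 and 10 for WT/mut and 1, 3, 4 and 5 for WT. Each log2 fold change sets WT/mut over WT and is followed by its standard error (SE), and ± after a CPM value is the SD over 5 WT/mut or 4 WT libraries. The markers of T and Tfh cells were high in every library, with a sum of 7202 to 7635 CPM in WT/mut and 7602 to 8533 CPM in WT libraries. Of these 9 genes 6 had a negative log2 fold change and 3 a positive one. For Icos all 5 WT/mut libraries were below all 4 WT libraries, which held for 2.38% of all tested genes (-0.52 ± 0.09, edgeR adjusted p = 0.0721). Of 2 CD8 T cell markers, Cd8a averaged 0.385 ± 0.363 CPM in WT/mut cells, against 1.03 ± 0.645 CPM in WT cells. Cd8b1 averaged 3.52 ± 0.825 CPM in WT/mut cells, against 3.64 ± 0.652 CPM in WT cells. Tgfbr1 itself was measured at 83.1, 87.1, 67.7, 82.9 and 47.3 CPM in the WT/mut libraries, against 49.96, 82.98, 76.7 and 98.5 CPM in the WT libraries, with overlapping groups (-0.07 ± 0.21, edgeR adjusted p = 0.921). Counts per gene do not tell the mutant allele from the wild-type one. Markers of other cells differed in level between the libraries. The summed plasma cell markers stood at 1122 ± 420.1 CPM in WT/mut cells, against 387 ± 112 CPM in WT cells, the B cell markers at 223 ± 115 CPM in WT/mut cells, against 121 ± 60.9 CPM in WT cells, and the red cell markers at 574 ± 201 CPM in WT/mut cells, against 199 ± 75.97 CPM in WT cells. The markers of intestinal epithelium stood at 87.1 ± 66.9 CPM in WT/mut cells, against 162 ± 148 CPM in WT cells. In such bulk samples, fewer cells of a type and less RNA per cell cannot be told apart.

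None of the 87 tested members passed the threshold of an edgeR adjusted p under 0.05. Over all 15521 tested genes 19 passed, or 0.122%, and among the members the lowest adjusted p was 0.374, for Ndufaf7. DESeq2 also called 0 members, against 283 of all tested genes, or 1.82%. The CPM ranges of the groups overlapped for all 87 members, whereas over all tested genes they were separate for 4.46%, with 2.38% lower and 2.09% higher in WT/mut. At an unadjusted p under 0.05 there were 4 members, all lower in WT/mut cells, against 12.2% of all tested genes in either direction, 6.46% lower in WT/mut and 5.69% higher. The 4 members make 4.60% of 87, which is below the share among all tested genes, and with DESeq2 the number was 10 (14.2% of all tested genes). The signs were nevertheless uneven, with 68 members below 0 and 19 above, against 49.8% of all tested genes below 0. The median log2 fold change was -0.14 over the members and 0.0015 over all tested genes, and the median SE of a member was 0.13. The 95% interval of the log2 fold change lay within 0.5 of 0 on both sides for 55 members and within 1 for 85.

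**Figure D1:**
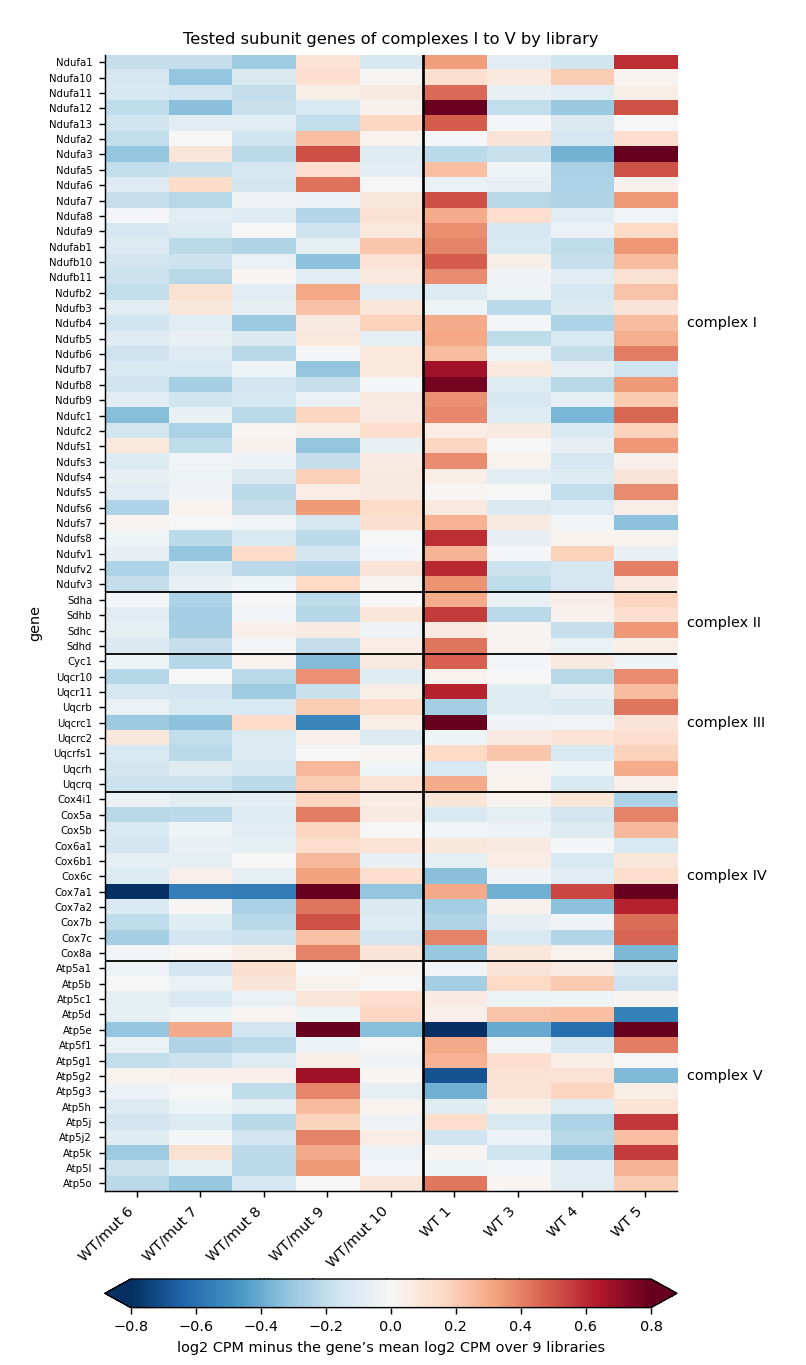
Level of the tested subunit genes (rows, grouped by complex) in each library (columns, WT/mut to the left of the line and WT to its right). Colour is the log2 CPM minus the mean log2 CPM of that gene over the 9 libraries, red for higher and blue for lower. Most rows of complexes I to III are red in WT replicates 1 and 5, and many rows of complexes IV and V are red in WT/mut replicate 9 and WT replicate 5.

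The medians of complexes I to III were further below 0 than those of complexes IV and V with all 9 libraries, and less so without WT replicate 1. Of the 49 tested subunits of complexes I to III, 43 had a negative fold change, with a median of -0.17. Of the 26 tested subunits of complexes IV and V, 16 had a negative fold change, with a median of -0.02. By complex, the medians were -0.17 for complex I, -0.21 for complex II, -0.12 for complex III, -0.03 for complex IV and -0.02 for complex V, as the plot of fold changes shows. Without WT replicate 1 they were -0.08 for complex I, -0.10 for complex II, -0.12 for complex III, -0.05 for complex IV and -0.07 for complex V, so that complexes I and V had like medians. These counts have no test of their own, and the difference between complexes was not tested.

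**Figure D2:**
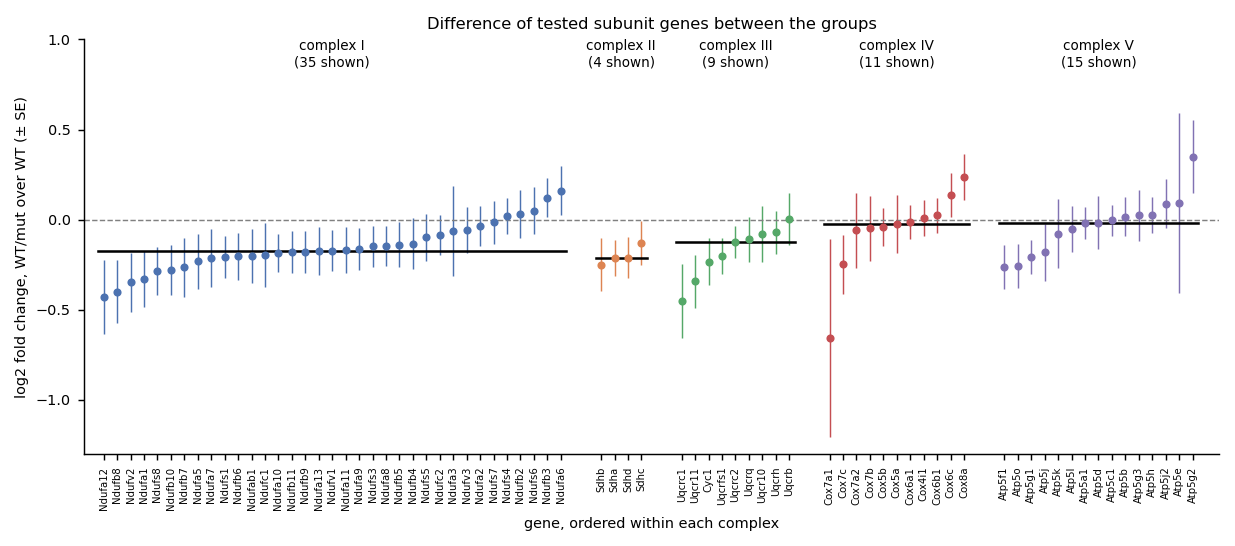
Log2 fold change, WT/mut over WT, of the tested subunit genes (points, with bars of 1 SE), ordered within each complex, and the median over all tested subunits of each complex (black line). The points of complexes I to III lie mostly below 0, with medians from -0.21 to -0.12, and those of complexes IV and V lie around 0, with medians of -0.03 and -0.02.

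Summed over its subunits, complex I stood at 3092, 3059, 3159, 3268 and 3503 CPM in the WT/mut libraries, against 4328, 3253, 3128 and 3887 CPM in the WT libraries. WT replicates 1 and 5 were the 2 highest libraries, and WT replicates 3 and 4 lay inside the range of the WT/mut libraries. The ratio of the group means was 0.881, WT/mut over WT. Complex III stood at 1238, 1179, 1344, 1255 and 1398 CPM in the WT/mut libraries, against 1862, 1365, 1338 and 1536 CPM in the WT libraries, with WT replicates 1 and 5 again highest and a ratio of 0.841. For complex II the sums ranged from 814 to 988 CPM in WT/mut and 918 to 1248 CPM in WT libraries, with the same 2 libraries highest and a ratio of 0.862. Complex IV had 1151, 1193, 1184, 1517 and 1273 CPM in the WT/mut libraries, against 1203, 1253, 1203 and 1327 CPM in the WT libraries. Here WT/mut replicate 9 was highest and the ratio was 1.01. Complex V, at 3755 ± 202 CPM in WT/mut cells, against 3863 ± 137 CPM in WT cells, had overlapping ranges and a ratio of 0.972.

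**Figure D3:**
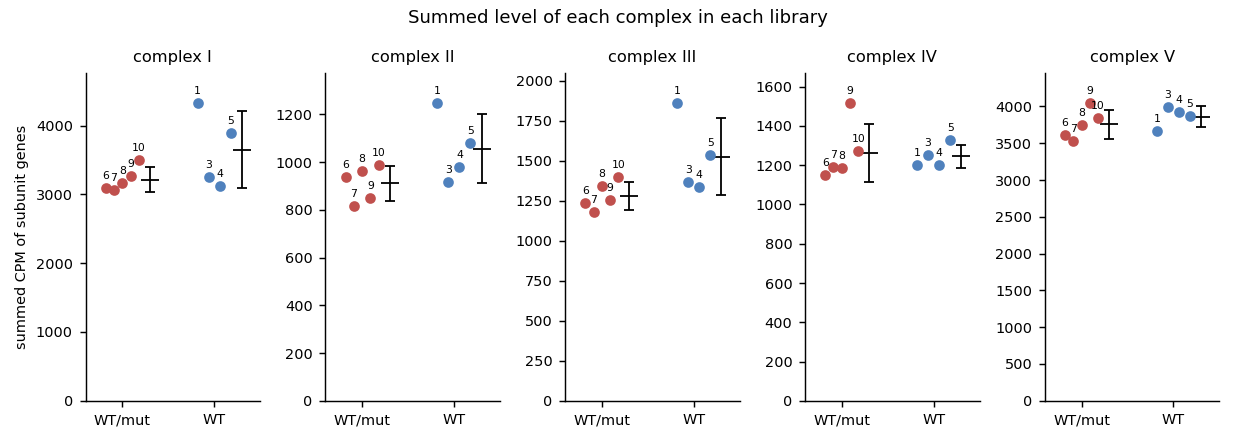
Summed CPM of the subunit genes of each complex in each library (points, labelled by replicate number), with the mean and SD of each group beside them (black). WT/mut is on the left of each panel and WT on the right. For complexes I to III, WT replicates 1 and 5 stand above the WT/mut libraries while WT replicates 3 and 4 stand among them.

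Complex I is built from a core that holds the flavin and the iron-sulfur clusters, a membrane arm and many accessory subunits. All 7 nuclear core subunits had a negative fold change (median -0.17), and none passed the test. Ndufv2, an iron-sulfur subunit of the NADH-binding module, had 138, 151, 141, 139 and 175 CPM in the WT/mut libraries, against 249, 145, 149 and 216 CPM in the WT libraries. The highest libraries were WT replicates 1 and 5, and the other 2 WT libraries lay within the WT/mut range (-0.35 ± 0.16, edgeR adjusted p = 0.419). Ndufs8, an iron-sulfur subunit on the path to ubiquinone, had 128, 113, 120.3, 114 and 131 CPM in the WT/mut libraries, against 197, 125.5, 134 and 134 CPM in the WT libraries. WT replicate 1 alone was far above the rest, and WT replicate 3 was inside the WT/mut range (-0.28 ± 0.13, edgeR adjusted p = 0.423, exact two-sided permutation p = 0.0317 unadjusted). Further core subunits were Ndufs1 (-0.21 ± 0.12), which carries iron-sulfur clusters of the NADH module, Ndufv1 (-0.17 ± 0.11), which binds NADH and the flavin, Ndufs7 (-0.02 ± 0.12), an iron-sulfur subunit near the ubiquinone site, and Ndufs3 (-0.15 ± 0.11). Their adjusted p-values by edgeR were between 0.4804 and 0.968. For Ndufs7 the sign turned in 7 of 21 alternative settings.

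Among the 29 accessory subunits 24 had a negative fold change and 5 a positive one, with a median of -0.17. Ndufb8, a subunit of the membrane arm, had the lowest p of complex I (ENSMUSG00000025204.10, chr19:44548572-44555440, minus strand of GRCm38). It stood at 143, 134, 144, 141 and 159 CPM in the WT/mut libraries, against 272, 149, 137 and 203 CPM in the WT libraries. Again WT replicates 1 and 5 were highest, while WT replicates 3 and 4 lay within the WT/mut range. The log2 fold change was -0.40 ± 0.18 (edgeR p = 0.0451, adjusted p = 0.403, exact permutation p = 0.103), and without WT replicates 1 and 5 it was 0.006. Ndufa12, an accessory subunit next to the NADH module, had the most negative value of complex I and the same order of libraries, at 82.4, 75.3, 83.8, 87.2 and 97.3 CPM in the WT/mut libraries, against 164, 82.7, 77.3 and 135 CPM in the WT libraries (-0.43 ± 0.21, edgeR adjusted p = 0.428). Ndufa1, a small membrane subunit needed for assembly, had 101, 101, 94.9, 125 and 106 CPM in the WT/mut libraries, against 146, 109, 103 and 174 CPM in the WT libraries, with WT replicates 5 and 1 highest (-0.33 ± 0.16, edgeR adjusted p = 0.423).

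At the other end of complex I, Ndufa6 (0.16 ± 0.14), Ndufb3 (0.12 ± 0.11), Ndufs6 (0.05 ± 0.13), Ndufb2 (0.03 ± 0.13) and Ndufs4 (0.02 ± 0.10) were the 5 subunits above 0, with edgeR adjusted p from 0.634 to 0.953. Ndufs4 and Ndufs6 are accessory subunits of the arm that protrudes into the matrix. Ndufa6 stood at 44.9, 53.5, 43.5, 65.3 and 48.1 CPM in the WT/mut libraries, against 46.5, 46.3, 40.4 and 49.5 CPM in the WT libraries. WT/mut replicate 9 was highest and the groups overlapped. By symbol family, 12 of 13 Ndufa, 8 of 10 Ndufb, 2 of 2 Ndufc, 6 of 8 Ndufs and 3 of 3 Ndufv genes were below 0, as was Ndufab1, the mitochondrial acyl carrier protein (-0.20 ± 0.15). The Ndufa count includes Ndufa4, which belongs with complex IV and was also below 0.

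The 7 Ndufaf genes encode proteins that help build complex I and are not part of it. Of these, 4 were below 0 and 3 above, with a median of -0.11. Ndufaf7, known as a methyltransferase needed for complex I assembly, had the lowest p of all 87 members (ENSMUSG00000024082.4, chr17:78937136-78948052, plus strand). Its values were 26.6, 19.99, 24.9, 25.4 and 29.9 CPM in the WT/mut libraries, against 35.5, 26.5, 31.6 and 35.9 CPM in the WT libraries. WT replicates 1, 4 and 5 were above every WT/mut library, and WT replicate 3 lay inside their range. The log2 fold change was -0.35 ± 0.14 (edgeR p = 0.0328, adjusted p = 0.374, exact two-sided permutation p = 0.0476 unadjusted). It kept its sign in all 21 alternatives. Ndufaf6 (-0.28 ± 0.20) and Ndufaf1 (-0.21 ± 0.15) came next in p, and Ndufaf2, a relative of Ndufa12, stood at 0.12 ± 0.18. An annotated gene on the opposite strand covers 1955 bp of the exons of Ndufaf2, and the kit does not mark the strand.

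Complex II oxidises succinate and is also an enzyme of the citric acid cycle. All 4 subunits had a negative fold change and none passed the test. Sdha, the flavoprotein subunit, had 551, 464, 553, 482 and 556 CPM in the WT/mut libraries, against 683, 532, 576 and 624 CPM in the WT libraries. All WT libraries other than replicate 3 were above all 5 WT/mut libraries, and replicate 3 lay within their range (-0.21 ± 0.10, edgeR adjusted p = 0.423, exact two-sided permutation p = 0.0635 unadjusted). Sdhb, the iron-sulfur subunit, had 201, 177, 210.5, 182 and 228 CPM in the WT/mut libraries, against 314, 183, 218 and 234 CPM in the WT libraries, with a single library, WT replicate 1, far above the rest (-0.25 ± 0.15, edgeR adjusted p = 0.4932). The membrane anchors Sdhd (-0.21 ± 0.11) and Sdhc (-0.13 ± 0.12) had edgeR adjusted p-values of 0.468 and 0.678.

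In complex III, which passes electrons from ubiquinone to cytochrome c, 8 of 9 genes were below 0. Uqcrc1, a core protein of the matrix side, had the most negative value, with 373, 365, 509, 317 and 475 CPM in the WT/mut libraries, against 844, 448, 449.5 and 491 CPM in the WT libraries. WT replicate 1 was far above all others, WT replicate 5 lay inside the WT/mut range, and so did WT replicates 3 and 4 (-0.45 ± 0.21, edgeR adjusted p = 0.411). Uqcr11, a small accessory subunit, had the lowest p of the complex (ENSMUSG00000020163.12, chr10:80402997-80406830, minus strand). It stood at 83.4, 82.7, 75.2, 81.2 and 94.96 CPM in the WT/mut libraries, against 141, 85.7, 88.2 and 109 CPM in the WT libraries. The WT libraries above every WT/mut library were replicates 1 and 5, with the other 2 within the range (-0.34 ± 0.15, edgeR p = 0.0395, adjusted p = 0.389, exact permutation p = 0.0556, sign kept in all 21 alternatives).

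Of the electron-carrying subunits of complex III, Cyc1, which is cytochrome c1, averaged 167 ± 20.1 CPM in WT/mut cells, against 196 ± 34.6 CPM in WT cells (-0.23 ± 0.13, edgeR adjusted p = 0.479). Uqcrfs1, the Rieske iron-sulfur protein, had 83.1, 77.9, 83.99, 90.3 and 91.3 CPM in the WT/mut libraries, against 101, 105, 83.05 and 103 CPM in the WT libraries. Here WT replicates 1, 3 and 5 were above all WT/mut libraries, and WT replicate 4 was within their range (-0.20 ± 0.10, edgeR adjusted p = 0.441). The second core protein Uqcrc2 (-0.12 ± 0.09), Uqcrq (-0.11 ± 0.12), Uqcr10 (-0.08 ± 0.15), the hinge protein Uqcrh (-0.07 ± 0.12) and Uqcrb (0.0041 ± 0.14) were closer to 0. Cycs, the soluble carrier between complexes III and IV, had 152, 136, 135, 169 and 166 CPM in the WT/mut libraries, against 223, 152, 150.1 and 208 CPM in the WT libraries. The 2 highest libraries were WT replicates 1 and 5, and WT replicates 3 and 4 were inside the WT/mut range (-0.27 ± 0.14, edgeR adjusted p = 0.449).

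Complex IV, cytochrome c oxidase, has its catalytic core encoded in mitochondrial DNA, and the nuclear subunits surround it. Of 17 genes, 11 were tested, with 7 below 0 and 4 above. Its 3 central nuclear subunits were near 0, at 0.0071 ± 0.10 for Cox4i1, -0.03 ± 0.16 for Cox5a and -0.04 ± 0.10 for Cox5b, and each of these signs turned in at least 3 of 21 alternatives. Cox5a stood at 79.6, 80.01, 86.1, 123 and 97.4 CPM in the WT/mut libraries, against 85.3, 87.9, 83.8 and 122 CPM in the WT libraries. WT/mut replicate 9 and WT replicate 5 were the 2 highest libraries and the other 7 lay below them. Cox8a had the lowest p of the complex and a positive fold change, with 164, 167, 173, 219 and 179 CPM in the WT/mut libraries, against 135, 177, 169.6 and 129.6 CPM in the WT libraries. WT/mut replicate 9 was highest, WT replicates 1 and 5 were lowest, and WT replicates 3 and 4 lay inside the WT/mut range (0.24 ± 0.13, edgeR adjusted p = 0.462, sign kept in all 21 alternatives). Cox7c had a negative fold change, with 78.6, 85.1, 83.9, 111 and 85.5 CPM in the WT/mut libraries, against 124, 86.7, 80.2 and 130.3 CPM in the WT libraries, with WT replicates 5 and 1 highest (-0.25 ± 0.16, edgeR adjusted p = 0.5398). Cox6a1 (-0.01 ± 0.09), Cox6b1 (0.02 ± 0.10), Cox6c (0.14 ± 0.12), Cox7a2 (-0.06 ± 0.21) and Cox7b (-0.05 ± 0.18) had overlapping groups. The 2 members kept beside complex IV, Ndufa4 (-0.16 ± 0.15) and the supercomplex factor Cox7a2l (-0.17 ± 0.16), did not pass either.

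Several complex IV subunits come in a general form and in forms known from muscle, testis or lung. Other than Cox7a1, no such form reached more than 0.267% of the CPM per kb of its family in any library. Cox4i2 had 7 counts over the 9 libraries, Cox6a2 11, Cox6b2 37, Cox7b2 3, Cox8b 2 and Cox8c 0, and Ndufa4l2 had 3. These 7 genes did not pass the filter on low counts. Cox7b2, Ndufa4l2, Cox8b and Cox8c were at or under the floor of 3 counts, at which no level can be given. Cox7a1, the form known from heart and skeletal muscle, was detected in all 9 libraries, at 0.601, 1.07, 1.06, 3.31 and 1.26 CPM in the WT/mut libraries, against 1.93, 1.20, 2.27 and 3.81 CPM in the WT libraries. The highest values were in WT/mut replicate 9 and WT replicate 5, and the groups overlapped (-0.66 ± 0.55, edgeR adjusted p = 0.629). Of the summed CPM per kb of Cox7a1 and Cox7a2, Cox7a1 made 5.87 ± 2.70% in WT/mut and 9.20 ± 2.83% in WT cells. Whether this came from Tfh cells was not tested.

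In complex V the catalytic head, which turns proton flow into ATP, had values near 0, with a median log2 fold change of -0.0043 over its 5 genes. Atp5b, the catalytic beta subunit and the member with most counts, had 1123, 1087, 1208, 1148 and 1126 CPM in the WT/mut libraries, against 937, 1256, 1303 and 1003 CPM in the WT libraries, and Atp5a1, the alpha subunit, had 682, 631, 765, 699 and 713 CPM in the WT/mut libraries, against 691, 754, 733 and 649.6 CPM in the WT libraries. For both, the WT libraries lay on either side of the WT/mut mean (0.02 ± 0.11 and -0.02 ± 0.09). The stalk subunits Atp5c1 (gamma, -0.0043 ± 0.08) and Atp5d (delta, -0.02 ± 0.15) were alike in this. With an SE of 0.08, Atp5c1 was the most precisely measured member, and its 95% interval ran from -0.19 to 0.18. Atp5e, the small epsilon subunit, was the most variable one, with 8.12, 12.4, 9.05, 22.9 and 7.95 CPM in the WT/mut libraries, against 4.84, 7.60, 6.63 and 26.1 CPM in the WT libraries. WT replicate 5 and WT/mut replicate 9 stood far above the other 7 libraries, and the log2 fold change was 0.09 ± 0.50.

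The peripheral stalk holds the head still against the turning rotor. Atp5f1 (subunit b) had 291, 255, 259.9, 292 and 302 CPM in the WT/mut libraries, against 371, 296, 275 and 400.004 CPM in the WT libraries, with WT replicates 5 and 1 above all WT/mut libraries (-0.26 ± 0.12, edgeR adjusted p = 0.414). Atp5o, the subunit named OSCP that joins stalk and head, averaged 140.03 ± 15.5 CPM in WT/mut cells, against 167 ± 26.2 CPM in WT cells (-0.26 ± 0.12, edgeR adjusted p = 0.431), Atp5j stood at -0.18 ± 0.16 and Atp5h at 0.02 ± 0.10. The 3 small membrane subunits Atp5j2, Atp5k and Atp5l had values of 0.09 ± 0.14, -0.08 ± 0.19 and -0.05 ± 0.13. Exons of Atp5f1, Atp5j, Atp5l and Atp5o overlap exons annotated on the opposite strand, among them 397 bp shared by Atp5j and Gabpa. Reads there cannot be assigned to a strand. This held for 29 of the 94 members. Atp5s (-0.38 ± 0.22) and Atp5sl (-0.10 ± 0.14), which carry an ATP synthase symbol without being subunits, did not pass.

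The rotor ring of complex V is made of subunit c, which Atp5g1, Atp5g2 and Atp5g3 encode with different import sequences. The last 78 residues, translated from the annotated transcripts, were identical in all 3 pairs, while 84.6% of the bases behind them were the same in Atp5g1 and Atp5g2, 78.6% in Atp5g1 and Atp5g3 and 77.4% in Atp5g2 and Atp5g3. The longest identical stretches there were 20, 11 and 8 bases. Atp5g1 and Atp5g2 had values that were not whole in all 9 libraries and Atp5g3 in 4. Whether reads were shared among the 3 genes or with other loci was not tested. Atp5g1 had 110.2, 112, 118, 131 and 124 CPM in the WT/mut libraries, against 153, 139, 131 and 126.5 CPM in the WT libraries (ENSMUSG00000006057.15, chr11:96068852-96075670, minus strand). WT replicate 5 lay inside the WT/mut range and the other 3 WT libraries above it, WT replicate 4 by under 1 CPM (-0.21 ± 0.09, edgeR p = 0.0481, adjusted p = 0.407, exact two-sided permutation p = 0.0317 unadjusted, sign kept in all 21 alternatives). Atp5g2 had the opposite sign, with 51.9, 52.3, 52.3, 81.3 and 51.4 CPM in the WT/mut libraries, against 31.3, 55.3, 55.1 and 39.8 CPM in the WT libraries. WT replicates 1 and 5 were below every WT/mut library, and WT/mut replicate 9 was far above all others (0.35 ± 0.20, edgeR adjusted p = 0.4903, sign kept in all 21 alternatives). Atp5g3 had 187, 194, 168, 253 and 184 CPM in the WT/mut libraries, against 149, 209, 218 and 199.98 CPM in the WT libraries, with overlapping groups (0.02 ± 0.14).

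Per kb of exon, Atp5g3 supplied most of the c subunit mRNA, at 60.6 ± 1.52% in WT/mut and 61.6 ± 3.03% in WT cells. The lengths, the union of all annotated exons, were 4912 bp for Atp5g1, 1675 bp for Atp5g2 and 2181 bp for Atp5g3. By CPM Atp5g1 was above Atp5g2 in every library, so the size of their shares depends on these lengths. The share of Atp5g2 was 22.2, 21.9, 23.6, 25.4 and 21.9% in the WT/mut libraries, against 15.8, 21.03, 20.6 and 16.8% in the WT libraries. All 5 WT/mut libraries were above all 4 WT libraries in this share, the nearest being WT/mut replicate 7 and WT replicate 3. The share of Atp5g1 was 16.1, 16.01, 18.2, 13.9 and 18.03% in the WT/mut libraries, against 26.4, 17.97, 16.7 and 18.2% in the WT libraries, with WT replicate 1 highest and the groups overlapping. These shares were examined after the values of the 3 genes had been seen, and they carry no test.

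**Figure D4:**
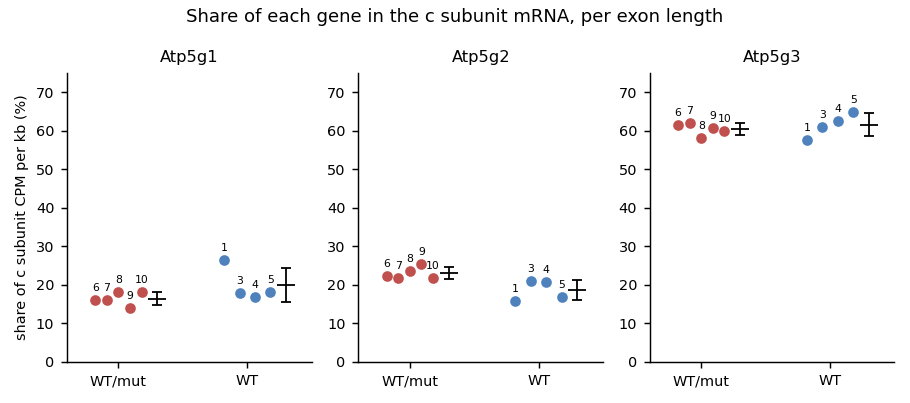
Share of Atp5g1, Atp5g2 and Atp5g3 in their summed CPM per kb of exon (%) in each library (points, labelled by replicate number), with the mean and SD of each group beside them (black). WT/mut is on the left of each panel and WT on the right. The Atp5g2 share lies between 21.9% and 25.4% in the WT/mut libraries and between 15.8% and 21.0% in the WT libraries.

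The promoters of the respiratory chain genes are known to hold binding sites of NRF1, GABP and YY1, transcription factors linked to mitochondrial genes. For 77 of 94 members RefSeq (GRCm38.p6) gave at least 1 window from 250 bases before to 50 bases after the gene start. The windows were searched on both strands for GCGCANGCGC (the core of an NRF1 site), CCGGAAG (an ETS core, as bound by GABP) and AAGATGG (YY1). The NRF1 word was present for 19 of 77 members, or 24.7%, against 7.17% of 17491 protein-coding genes and 4.60% of all 32851 windows. The ETS core was present for 17, or 22.1%, against 12.9% of protein-coding genes and 8.86% of all windows, and the YY1 word for 12, or 15.6%, against 7.18% and 6.34%. At least 1 of the 3 was present for 42 members, or 54.5%, against 24.1% of protein-coding genes. The protein-coding genes were not matched to the members in expression level or base content, and these differences were not tested. Among tested genes with a window, at least 1 word was present for 17 of 32 genes of complex I and 3 of 3 of complex II. It was present for 3 of 5 genes of complex III, 4 of 9 of complex IV and 11 of 14 of complex V. The median log2 fold change was -0.08 for the 19 tested members with the NRF1 word and -0.17 for the 55 without it. It was -0.15 with and -0.15 without the ETS core, and -0.13 with and -0.15 without the YY1 word. No test was made of these medians. A match says that the letters are present, not that a factor is bound.

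Shown first are the promoters of the 2 respiratory chain subunits with an unadjusted p under 0.05. Both lie on the minus strand, Ndufb8 at chr19:44555393-44555692 with the YY1 word in capitals and Uqcr11 at chr10:80406772-80407071 with the ETS core in capitals. They are followed by the 3 c subunit genes, which differ in their fold changes while encoding the same mature protein. Atp5g1 at chr11:96075582-96075881 held none of the 3 words, and Atp5g2 at chr15:102670998-102671297 and Atp5g3 at chr2:73911277-73911576 each held the NRF1 word, in capitals, which in Atp5g3 is read from the other strand. All 3 are on the minus strand.
Ndufb8: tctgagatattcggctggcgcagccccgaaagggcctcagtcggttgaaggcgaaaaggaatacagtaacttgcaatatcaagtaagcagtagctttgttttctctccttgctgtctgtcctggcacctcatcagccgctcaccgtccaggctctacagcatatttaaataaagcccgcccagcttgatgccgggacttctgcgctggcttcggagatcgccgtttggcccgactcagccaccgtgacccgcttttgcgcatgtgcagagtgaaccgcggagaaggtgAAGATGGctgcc
Uqcr11: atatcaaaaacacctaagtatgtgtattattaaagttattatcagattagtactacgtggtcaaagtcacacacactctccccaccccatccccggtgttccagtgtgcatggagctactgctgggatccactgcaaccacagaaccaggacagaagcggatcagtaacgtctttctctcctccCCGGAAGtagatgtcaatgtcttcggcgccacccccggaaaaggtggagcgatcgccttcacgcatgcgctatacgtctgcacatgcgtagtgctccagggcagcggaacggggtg
Atp5g1: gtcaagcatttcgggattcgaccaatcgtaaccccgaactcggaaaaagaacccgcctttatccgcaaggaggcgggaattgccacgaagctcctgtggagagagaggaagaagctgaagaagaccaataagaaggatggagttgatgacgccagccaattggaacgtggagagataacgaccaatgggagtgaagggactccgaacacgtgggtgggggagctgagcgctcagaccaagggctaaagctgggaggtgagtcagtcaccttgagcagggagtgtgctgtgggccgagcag
Atp5g2: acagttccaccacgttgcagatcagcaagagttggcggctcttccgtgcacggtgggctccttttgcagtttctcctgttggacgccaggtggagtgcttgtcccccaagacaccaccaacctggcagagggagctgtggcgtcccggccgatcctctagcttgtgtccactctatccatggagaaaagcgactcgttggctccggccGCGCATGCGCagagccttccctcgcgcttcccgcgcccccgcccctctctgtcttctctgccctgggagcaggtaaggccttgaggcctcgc
Atp5g3: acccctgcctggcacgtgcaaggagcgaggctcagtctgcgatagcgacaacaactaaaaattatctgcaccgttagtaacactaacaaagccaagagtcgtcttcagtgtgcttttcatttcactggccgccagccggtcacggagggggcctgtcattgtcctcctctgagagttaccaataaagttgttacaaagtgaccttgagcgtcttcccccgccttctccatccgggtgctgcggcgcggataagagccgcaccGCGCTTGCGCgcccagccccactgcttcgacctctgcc

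Levels can be compared between genes per kb of exon. Within complex I the level ran from 8.08 CPM per kb in WT/mut and 7.89 CPM per kb in WT cells for Ndufb2 up to 252 CPM per kb in WT/mut and 317 CPM per kb in WT cells for Ndufa1. The median over the complex I genes was 55.01 CPM per kb in WT/mut and 62.8 CPM per kb in WT cells. Sdha was the highest and Sdhc the lowest gene of complex II, at 126.4 CPM per kb in WT/mut and 146 CPM per kb in WT cells for Sdha and 18.2 CPM per kb in WT/mut and 19.9 CPM per kb in WT cells for Sdhc. Uqcrb led complex III at 166 CPM per kb in WT/mut and 166 CPM per kb in WT cells, and Uqcrq was lowest at 38.99 CPM per kb in WT/mut and 42.04 CPM per kb in WT cells. In complex IV, Cox8a was highest at 291 CPM per kb in WT/mut and 247 CPM per kb in WT cells. In complex V the beta subunit Atp5b led at 269 CPM per kb in WT/mut and 265 CPM per kb in WT cells, and Atp5e was lowest at 6.88 CPM per kb in WT/mut and 6.43 CPM per kb in WT cells. The lengths are the union of all annotated exons, so that a gene with long exons used by few transcripts appears lower than its mRNA is.

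Single libraries set the order for most members. WT replicate 1 was the highest of the 9 libraries for 35 of 87 members, against 20.04% of all tested genes, WT replicate 5 for 25, against 14.2%, and WT/mut replicate 9 for 18, against 14.7%, which leaves 9 members for the other 6 libraries. WT replicate 1 led 21 of the 36 complex I genes and none of complex IV, where WT/mut replicate 9 led 7 of 11 and WT replicate 5 the other 4. WT replicates 1 and 5 were picked for the next counts after the members' values were seen, so their excess over all tested genes follows in part from that choice and is a description. The pair was above WT replicates 3 and 4 for 50 of 87 members, or 57.5%, against 23.4% of all tested genes. All 5 WT/mut libraries were below WT replicates 1 and 5 for 31 members, or 35.6%, against 14.7% of all tested genes, while WT replicates 3 and 4 both lay inside the WT/mut range for 56 members, or 64.4%, against 44.7% of all tested genes. The SD was larger in WT than in WT/mut libraries for 63 members, or 72.4%, against 63.3% of all tested genes. The median coefficient of variation of the members was 10.6% in WT/mut and 16.8% in WT libraries. Over all tested genes it was 18.3% in WT/mut and 25.3% in WT libraries. Members led by WT replicate 1 had a median exon length of 1972 bp, those led by WT replicate 5 had 1237 bp, and those led by WT/mut replicate 9 had 1612.5 bp.

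The ratio of complex I to complex V within a library takes out the scaling between libraries. It was 0.856, 0.867, 0.842, 0.808 and 0.913 in the WT/mut libraries, against 1.18, 0.816, 0.796 and 1.01 in the WT libraries. WT replicates 1 and 5 lay above every WT/mut library and WT replicates 3 and 4 within or below their range. The WT libraries thus differed more among themselves than the WT/mut mean differed from the WT mean.

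Without WT replicates 1 and 5, an alternative chosen after the data were seen, 40 members were below 0 and 47 above, and the median log2 fold change was 0.02. The ratios of summed CPM, WT/mut over WT, were then 1.00 for complex I, 0.955 for complex II, 0.945 for complex III, 1.02 for complex IV and 0.945 for complex V. Leaving out 1 library at a time, the number of members below 0 was between 56 (without WT replicate 5) and 76 (without WT/mut replicate 9), and the median between -0.18 (without WT replicate 4) and -0.08 (without WT replicate 1). The number with an unadjusted p under 0.05 was 0 without WT/mut replicate 7 or WT replicate 1, 1 without WT/mut replicate 6 or 8, 2 without WT replicate 5, 4 without WT/mut replicate 9, 7 without WT/mut replicate 10 and 14 without WT replicate 3 or 4. Adjusted for the plasma cell marker share, also a choice made after the data were seen, 20 members were below 0 and 67 above, and the median was 0.18. The summed plasma cell markers did not overlap between the groups, so this fit cannot tell the marker share from the group. With the intestinal epithelium marker share the median was -0.16, and 22 members had an unadjusted edgeR p under 0.05 while 0 were called. For these alternatives the share of all tested genes at that threshold was not counted, so the numbers do not single out the members. In each of the 21 alternatives 0 members were called.

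**Figure D5:**
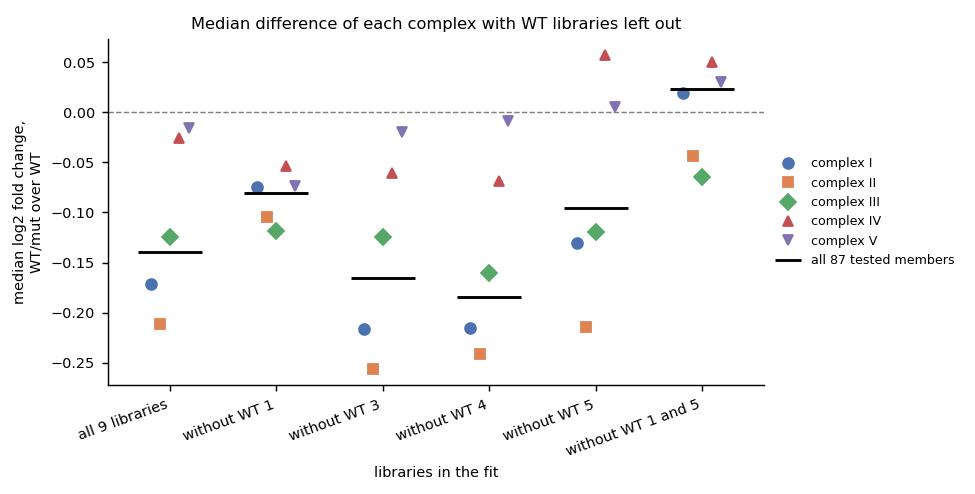
Median log2 fold change, WT/mut over WT, of each complex (symbols) and of all 87 tested members (black bars), with all 9 libraries and with WT libraries left out of the fit. The median of all members is -0.14 with all libraries, -0.08 without WT replicate 1, -0.10 without WT replicate 5 and 0.02 without both.

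WT replicates 1 and 5 also differed from WT replicates 3 and 4 in other measures. Cytosolic ribosomal protein genes took 0.671% and 0.769% of the counts in WT replicates 1 and 5, 1.05% and 0.953% in WT replicates 3 and 4, and between 0.972% and 1.47% in the WT/mut libraries. The summed markers of intestinal epithelium were at 35.2 and 71.3 CPM in WT replicates 1 and 5, 175 and 365 CPM in WT replicates 3 and 4, and between 25.8 and 197 CPM in the WT/mut libraries. The plasma cell markers were at 608 to 1575 CPM in WT/mut and 310.3 to 553 CPM in WT libraries, without overlap, and 4 of 6 tested genes of that list were above 0 in log2 fold change. Of its defining markers, Jchain was at 164 ± 86.4 CPM in WT/mut cells, against 22.6 ± 13.6 CPM in WT cells. Sdc1 was at 1.73 ± 1.12 CPM in WT/mut cells, against 2.00 ± 1.72 CPM in WT cells, and Tnfrsf17 was at 0 in 7 of 9 libraries. Of the B cell list 6 of 6 genes were above 0, and of the epithelium list 6 of 7 were below 0. Red cell markers were higher in all 5 WT/mut libraries for all 5 genes of the list, with sums of 401 to 869.6 CPM in WT/mut and 98.5 to 282 CPM in WT libraries. WT/mut replicate 7 had 30143 detected genes, against 17904 to 20264 in the other 8 libraries. With the number of detected genes as covariate, 65 of 87 members had a negative log2 fold change and the median was -0.12. With scaling that left out the ribosomal protein genes, 68 had one and the median was -0.14. The part of the red cell and B cell markers was not tested.

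Subunits encoded in mitochondrial DNA had another order of libraries than the complex I genes. Their 13 genes summed to 20099.5, 23092, 18115, 82938 and 14760.0 CPM in the WT/mut libraries, against 10774, 23942, 48679 and 20664 CPM in the WT libraries. WT/mut replicate 9 and WT replicate 4 were the 2 highest and WT replicate 1, which led most complex I genes, was the lowest. All 13 fold changes were above 0, with a median of 0.28 on the log2 scale and a median SE of 0.56, and none passed the test. The mean of the sums was higher in WT/mut, at 31801 CPM against 26015 CPM in WT. Their median was lower in WT/mut, at 20099.5 CPM against 22303 CPM in WT, so the positive signs depend on the high value of WT/mut replicate 9. The members of lowest p were mt-Nd3 of complex I (0.88 ± 0.88, edgeR adjusted p = 0.689) and mt-Co3 of complex IV (0.54 ± 0.65, edgeR adjusted p = 0.751).

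Other genes that serve the chain were read from lists, and no gene of these lists was called. Assembly factors of the complexes had 33 of 45 tested genes below 0 and a median of -0.12, with 7 at an unadjusted p under 0.05, all lower in WT/mut, which makes 15.6%, against 6.46% of all tested genes. Cox10, which makes heme O for complex IV, had 29.05, 24.3, 28.5, 23.002 and 29.5 CPM in the WT/mut libraries, against 54.05, 35.6, 35.6 and 37.1 CPM in the WT libraries. All 5 WT/mut libraries were below all 4 WT libraries, which among all tested genes held for 2.38% (-0.59 ± 0.15, edgeR adjusted p = 0.218). Of the 45 tested assembly factors 1 had separate groups, against 4.46% of all tested genes in either direction. Cox15, which acts in the next step and makes heme A, averaged 48.7 ± 6.58 CPM in WT/mut cells, against 62.9 ± 8.40 CPM in WT cells (-0.37 ± 0.13, edgeR adjusted p = 0.3301). Genes of ubiquinone reduction and synthesis had 12 of 14 tested members below 0 and a median of -0.23. Coq3, a methyltransferase of ubiquinone synthesis, had 18.4, 23.7, 22.6, 25.3 and 26.8 CPM in the WT/mut libraries, against 36.9, 33.2, 28.5 and 36.6 CPM in the WT libraries, again without overlap (-0.53 ± 0.14, edgeR adjusted p = 0.218). In this list 1 of 14 tested genes had separate groups, against 4.46% of all tested genes in either direction. At an unadjusted edgeR p under 0.05 there were 4 of the 14, all lower in WT/mut, or 28.6%, against 6.46% of all tested genes. Etfa, a subunit of the flavoprotein that feeds electrons from fatty acid oxidation towards ubiquinone, averaged 122 ± 15.8 CPM in WT/mut cells, against 166 ± 44.8 CPM in WT cells (-0.45 ± 0.17, edgeR adjusted p = 0.3403).

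The citric acid cycle and pyruvate dehydrogenase list had 13 of 16 genes below 0 and a median of -0.09. In that list 4 genes had an unadjusted edgeR p under 0.05, all lower in WT/mut, or 25%, against 6.46% of all tested genes. Its lowest p belonged to Sucla2, a subunit of succinyl-CoA synthetase, at 121, 109, 129.8, 109 and 137 CPM in the WT/mut libraries, against 214, 130.2, 134 and 203 CPM in the WT libraries. Both WT replicates 1 and 5 were far above the other libraries (-0.49 ± 0.16, edgeR adjusted p = 0.3003). Pdhb of pyruvate dehydrogenase followed (-0.39 ± 0.14, edgeR adjusted p = 0.339). The regulators and enzymes of mitochondrial biogenesis were even, with 9 of 18 genes below 0 and 9 above and a median of -0.005. Polg, the catalytic subunit of the mitochondrial DNA polymerase, had 185, 195, 226, 177 and 211 CPM in the WT/mut libraries, against 146, 136, 191 and 139.5 CPM in the WT libraries. All WT/mut libraries but replicates 6 and 9 were above every WT library (0.38 ± 0.12, edgeR adjusted p = 0.293). Gabpb1, a subunit of the factor GABP, stood at -0.34 ± 0.16 (edgeR adjusted p = 0.434).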

How the data were processed

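Polyadenylated RNA of sorted Peyer's patch Tfh cells was sequenced from 5 WT/mut and 4 WT libraries, each made from 300 pg of RNA with a low-input, non-stranded kit, per the labels' protocols. The authors deposited a table of expected counts for each gene, made with cutadapt 2.10, STAR 2.5.3, RSEM 1.3.0 and DESeq2 on the mm10 build, per the submitters' processing notes. For the gene annotation behind it, no release was given in any source used here. Columns were matched to libraries by the number in their names, which no 2 libraries share, and the WT/mut columns carry a prefix that the labels do not explain.

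Expected counts were rounded to whole numbers. Values were not whole, within 1e-06, in at least 1 library for 81 members and in all 9 for 25. Such values can arise where a model shares reads between genes. After filterByExpr (with a minimum count of 10 and a total of 15), 15521 genes were fitted with the robust quasi-likelihood test of edgeR 4.0.16 in R 4.3.3, with TMM scaling and Benjamini-Hochberg adjustment over all of them. Single genes also had exact permutation tests of the group labels, which cannot give a two-sided p below 0.00794. Positions and exon lengths came from GENCODE M21 (GRCm38), with which all 94 members matched by ID and 85 by ID and version. Alternatives used DESeq2 1.42.0, limma 3.58.1, other scalings, filters and covariates, and each library left out. The edgeR fit was tested on simulated data. Libraries held 29488783 to 43872686 counts. SDs, standard errors and p-values rest on the spread between libraries, which includes counting error.

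The members, the lists and the rule for genes named in the text were chosen with earlier results of these data known. The rule takes the core catalytic subunits, the 3 members of lowest p in each complex, every member with an unadjusted p under 0.05 or with separate groups, paralogue pairs, the highest and lowest member per exon length, and in other lists the genes of lowest p. A member that the rule takes is not reported here. Other genes named were chosen after their values were seen.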

Additional observations from a re-analysis of the deposited data

Results flagged for a closer look

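In 14 of 142 group ranges screened, 1 library stood apart from the others of its group by a gap that is large against the whole range, by Dixon's critical values. Chance flags about 1 in 20 groups where these are independent. The ranges here come from the same 9 libraries, so 14 of 142 cannot be set against that rate. WT/mut replicate 9 was the library that stood apart in 8 of them, WT replicate 1 in 3 and WT replicate 5 in 3.

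WT/mut replicate 9 was the highest WT/mut library, with a gap to the next, for 5 genes of complex IV and for 3 others. It had 179 CPM of Cox6b1 (next highest WT/mut library 149.6 CPM), 120.3 CPM of Cox7b (next 78.8 CPM) and 111 CPM of Cox7c (next 85.5 CPM). It also had 219 CPM of Cox8a (next 179 CPM) and 3.31 CPM of Cox7a1 (next 1.26 CPM). Beside complex IV, Ndufa4 stood at 145 CPM (next 115 CPM) Atp5g2 at 81.3 CPM (next 52.3 CPM) and Uqcrh at 116 CPM (next 94.8 CPM). The same library had the highest share of counts from mitochondrial DNA, at 10.1%, against at most 5.91% in the other libraries, and the highest share from ribosomal protein genes, at 1.47%. Their part in these values was not tested.

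WT replicate 1 stood above the other WT libraries for Ndufs8, at 197 CPM (next 134 CPM), and for Uqcrc1, at 844 CPM (next 491 CPM). Its ratio of summed complex III to complex IV CPM was 1.55, against 1.16 in the next WT library. WT replicate 5 stood above the other WT libraries for Cox5a, at 122 CPM (next 87.9 CPM), for Atp5e, at 26.1 CPM (next 7.60 CPM), and for Atp5l, at 138 CPM (next 113 CPM).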

How the results depend on the processing

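No paired analysis was possible because the groups share no replicate numbers. The number of members called was 0 under all 21 alternatives. Of the 63 tested members named in the text, 20 had no change of sign, and 142 of 1323 recomputed values had the other sign. Alternatives with the plasma cell or epithelium marker share as covariate, with scaling that leaves out ribosomal protein genes and without WT replicates 1 and 5 were chosen after seeing the data. Because the plasma cell marker sums did not overlap between the groups, adjusting for that share cannot separate it from the group. The cause of the changes was not tested. For the counts at an unadjusted p under 0.05 that follow, the share of all tested genes was taken only with DESeq2. Members with an unadjusted p under 0.05 numbered 1 with library size scaling, 7 with no low-count filter (93 members tested), 0 with detected genes as covariate, 10 with DESeq2, 1 with limma-voom library weights, 2 without WT replicates 1 and 5, 1 with the plasma cell marker share and 22 with the epithelium marker share. With 1 library left out at a time, values ranged from 11 to 31 for the number of members with a positive log2 fold change and 0 to 14 for the number of members with unadjusted p under 0.05. The log2 fold changes that turned sign there ranged from -0.036 to 0.12 for Ndufb2, -0.018 to 0.058 for Ndufs4, -0.026 to 0.11 for Ndufs6, -0.12 to 0.089 for Ndufs7, -0.18 to 0.042 for Uqcr10, -0.075 to 0.17 for Uqcrb, -0.14 to 0.023 for Uqcrh, -0.068 to 0.048 for Cox4i1, -0.13 to 0.12 for Cox5a, -0.080 to 0.044 for Cox5b, -0.053 to 0.024 for Cox6a1, -0.033 to 0.057 for Cox6b1, -0.17 to 0.18 for Cox7a2, -0.20 to 0.11 for Cox7b, -0.24 to 0.0016 for Ndufa4, -0.057 to 0.016 for Atp5a1, -0.056 to 0.10 for Atp5b, -0.040 to 0.025 for Atp5c1, -0.17 to 0.072 for Atp5d, -0.26 to 0.92 for Atp5e, -0.081 to 0.091 for Atp5g3, -0.031 to 0.065 for Atp5h, -0.28 to 0.0057 for Atp5j, -0.0024 to 0.19 for Atp5j2, -0.18 to 0.13 for Atp5k and -0.14 to 0.034 for Atp5l. With library size scaling, the log2 fold changes that turned sign were 0.022 for Ndufs7, 0.00078 for Cox5a, 0.020 for Cox6a1, 0.014 for Atp5a1, 0.028 for Atp5c1 and 0.016 for Atp5d. With no low-count filter (93 members tested), the log2 fold changes that turned sign were 0.0025 for Atp5c1. With detected genes as covariate, the log2 fold changes that turned sign were -0.019 for Ndufb2, 0.013 for Ndufs7, 0.0056 for Cox5a, 0.011 for Cox6a1, 0.027 for Atp5a1, 0.031 for Atp5c1, 0.017 for Atp5d and -0.030 for Atp5e. With DESeq2, the log2 fold changes that turned sign were 0.00041 for Atp5c1. With limma-voom library weights, the log2 fold changes that turned sign were 0.0040 for Ndufs7, -0.025 for Cox4i1, -0.054 for Atp5b, 0.0058 for Atp5c1, -0.085 for Atp5g3 and -0.0011 for Atp5h. Without WT replicates 1 and 5, values were 40 for the number of members with a negative log2 fold change, 47 for the number of members with a positive log2 fold change and 0.023 for the median log2 fold change, all members. Without WT replicates 1 and 5, the log2 fold changes that turned sign were 0.086 for Ndufa12, 0.082 for Ndufab1, 0.0060 for Ndufb8, 0.015 for Ndufv2, 0.050 for Ndufaf6, 0.023 for Sdhc, 0.083 for Uqcr10, -0.063 for Cox4i1, 0.11 for Cox5a, 0.057 for Cox5b, 0.14 for Cox7a2, 0.045 for Cox7b, 0.084 for Cox7c, 0.047 for Ndufa4, 0.12 for Cox7a2l, -0.17 for Atp5b, 0.031 for Atp5c1, -0.12 for Atp5g3, 0.12 for Atp5j, 0.21 for Atp5k, 0.031 for Atp5l and 0.098 for Atp5s. With the plasma cell marker share, values were 20 for the number of members with a negative log2 fold change, 67 for the number of members with a positive log2 fold change, 0.18 for the median log2 fold change, all members, 0.13 for the median log2 fold change, complex I, 0.096 for the median log2 fold change, complex III, 0.34 for the median log2 fold change, complex IV and 0.23 for the median log2 fold change, complex V. With the plasma cell marker share, the log2 fold changes that turned sign were 0.11 for Ndufa1, 0.15 for Ndufa12, 0.30 for Ndufab1, 0.010 for Ndufb8, 0.0058 for Ndufs7, 0.018 for Ndufv2, 0.079 for Ndufaf1, 0.18 for Ndufaf6, 0.19 for Sdhc, 0.34 for Uqcr10, 0.096 for Uqcrfs1, 0.22 for Uqcrh, 0.32 for Uqcrq, 0.17 for Cycs, 0.52 for Cox5a, 0.21 for Cox5b, 0.20 for Cox6a1, 0.54 for Cox7a1, 0.44 for Cox7a2, 0.38 for Cox7b, 0.23 for Cox7c, 0.30 for Ndufa4, 0.16 for Cox7a2l, 0.00032 for Atp5a1, -0.11 for Atp5b, 0.23 for Atp5c1, 0.087 for Atp5f1, 0.29 for Atp5j, 0.35 for Atp5k, 0.32 for Atp5l and 0.17 for Atp5o. With the epithelium marker share, the log2 fold changes that turned sign were 0.015 for Atp5a1 and 0.039 for Atp5d. With a minimum count of 50, the log2 fold changes that turned sign were 0.0032 for Cox6a1 and 0.010 for Atp5c1. With RLE scaling, the log2 fold changes that turned sign were 0.00039 for Atp5c1.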
